A study of Mus musculus with 8 samples.

Results

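Sorted XX pre-granulosa cells were compared with whole ovaries at embryonic day 13 (E13) in the mouse. The comparison uses 4 of the 8 arrays of the study, chosen by their titles: 2 arrays of sorted pre-granulosa cells and 2 arrays of whole ovaries. The other 4 arrays, of sorted XY Sertoli cells and whole testes at the same age, entered the fit for the estimate of spread and serve as the parallel contrast. Each pre-granulosa sample was about 30000 EGFP+ cells sorted from fetal XX gonads, and each ovary sample was a pool of 4 XX gonads. All 4 groups carry 1 strain label, C57BL6/J-Tg92, so the ovaries come from the same transgenic line as the sorted cells. In the literature Tg92 is a line in which the Sry promoter drives EGFP; the labels name neither promoter nor gate, and a sort of this kind holds whichever cells express that promoter. About 20 ng of total RNA per sample was amplified with the Ovation Biotin kit (NuGEN), and about 2.5 µg of labelled cDNA went onto each Affymetrix Mouse Genome 430v2.0 array. Separate litters or sorts are not stated for the replicates, so p-values measure the spread between these samples, which may be partly technical.

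Pre-granulosa cells are the somatic supporting cells of the fetal ovary and the XX counterpart of Sertoli cells. They descend from the coelomic epithelium, are specified under WNT4 and RSPO1 signalling and the transcription factor FOXL2, withdraw from the cell cycle early, and later enclose the oocytes of primordial follicles. The whole E13 ovary also holds oogonia and germ cells at the threshold of meiosis, stromal progenitors, endothelium, pericytes, macrophages, red cells of the blood, surface epithelium and adhering mesonephric tissue. A difference between sorted cells and the whole organ therefore describes which transcripts the sorted fraction holds more or less of, relative to the mixture it was taken from.

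Values are log2 intensities. The sorted arrays were shifted by the median difference of -0.253 (pre-granulosa minus ovary over 45037 probe sets), and all pre-granulosa values below are given after that shift. A gene is read from 1 probe set, the one with the highest mean over the 8 arrays, and a difference is pre-granulosa minus ovary in log2 units, given ± the standard error of the model with 2 arrays per group. Called means a Benjamini-Hochberg adjusted p at or below 0.01 in limma. Kdm5d, Uty and Eif2s3y lie on the Y chromosome, and their 9 probe sets read between 3.23 and 5.04 on the 4 XX arrays, and 5.04 is used as the background level. Xist, the X-inactivation transcript, read 11.64 and 11.89 in the pre-granulosa arrays and 11.11 and 11.59 in the ovary arrays, as the XX labels state.

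The 2 pre-granulosa arrays were less alike than the 2 ovary arrays. Their correlation across probe sets was 0.944, against 0.984 for the ovary pair, and the root mean square SD of a probe set was 0.531 against 0.299. In the sorted pair 471 genes lay more than 2 log2 units apart, 392 of them higher in replicate 2, against 34 genes in the ovary pair. The 3′ minus 5′ signal of the array's Gapdh control was 3.68 in pre-granulosa replicate 1 and 1.24 in replicate 2, with 1.55 and 1.40 in the ovary arrays. For beta-actin it was 3.08 and 1.70 in the sorted arrays and 2.33 and 2.18 in the ovary arrays. A larger 3′ excess is a sign of shorter labelled cDNA or degraded RNA, and its part in the results below was not tested.

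The depletions outnumbered the enrichments. Of 18193 genes, 157 were called higher in pre-granulosa cells (0.863%) and 939 were called lower (5.16%), 6.02% in either direction. Among the called genes 40 were more than 4-fold higher and 503 more than 4-fold lower, and beyond 16-fold there was 1 higher gene against 66 lower ones. The median of all genes was -0.14. In 237 of the 939 lower genes both sorted arrays lay at or under the background level, so their folds are limited by that floor. Both ovary arrays lay at or under it in 63 of the 157 higher genes.

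**Figure D1:**
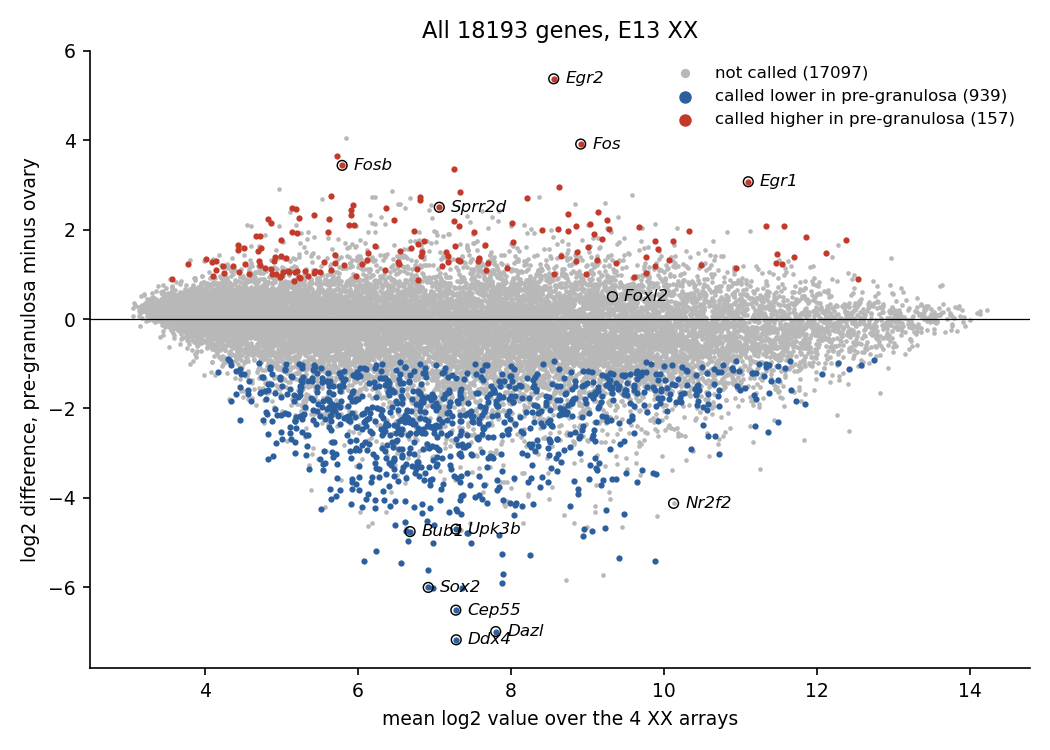
Log2 difference, pre-granulosa minus ovary, of all 18193 genes against their mean log2 value over the 4 XX arrays. Red points are the 157 genes called higher, blue points the 939 called lower and grey points those not called; the longest tail runs downward to Ddx4 at -7.17, and Egr2 at 5.37 is the highest gene.

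These calls rest on a spread pooled over all 4 groups. With the 4 XX arrays alone 0 genes were called by limma in either direction, with 5415 genes at an unadjusted p under 0.05 and a lowest adjusted p of 0.0236. Leaving out ovary replicate 1 also gave 0 calls, leaving out ovary replicate 2 gave 0 higher and 6 lower, and leaving out either testis array gave 10 higher and 173 lower. Without pre-granulosa replicate 1 the counts were 106 higher and 641 lower, and without replicate 2 they were 262 higher and 1648 lower. Scaling also matters: the median of all genes was -0.40 with the values as deposited, where 92 genes were called higher and 1659 lower, and -0.03 after quantile normalization over the 8 arrays, where 214 were called higher and 629 lower. Called genes were higher in 14.3% of cases here, in 5.25% as deposited and in 25.4% after quantile normalization.

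The cells were first examined for the genes that define them. Among 17 measured genes of a pre-granulosa list, 12 had a difference above 0 and the median was 0.44. Only Sprr2d was called higher and Lhx2 was called lower. Each call is 5.88% of the list, against 0.863% of all genes called higher and 5.16% called lower. Foxl2, the transcription factor that maintains granulosa identity, read 9.24 and 9.91 in the pre-granulosa arrays and 9.31 and 8.84 in the ovary arrays, so the groups overlapped (difference 0.50 ± 0.27, adjusted p = 0.235). Its second probe set gave -0.19. Wnt4, the signal that promotes ovarian development, read 10.98 and 9.95 against 9.50 and 9.62, and the difference was not called (0.91 ± 0.37, adjusted p = 0.132). Rspo1, the secreted enhancer of that signal, read 10.14 and 8.86 against 9.07 and 9.05, and the homeobox gene Irx3 read 11.41 and 9.38 against 9.56 and 9.54. In both genes replicate 1 stood well above the ovary and replicate 2 slightly below it.

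Other genes of that list stood further from the ovary. Sprr2d, a small proline-rich protein gene, read 8.70 and 7.92 in the sorted arrays and 5.70 and 5.93 in the ovaries, a 5.66-fold enrichment (difference 2.50 ± 0.28, adjusted p = 0.00406). Lgr5, a receptor for R-spondins, read 8.52 and 9.59 against 6.93 and 6.34 and missed the threshold (difference 2.42 ± 0.44, adjusted p = 0.0161), although its second probe set was called. The transcript that runs opposite to Foxl2, Foxl2os, read 11.90 and 11.70 against 9.56 and 10.14 (difference 1.95 ± 0.52, adjusted p = 0.0459). Fst, the activin antagonist follistatin, was among the brightest of these genes and read 11.40 and 13.14 against 12.44 and 12.63, with a difference of -0.27 ± 0.95 by this probe set and of 2.16, called, by its other one. Lhx2, a LIM homeobox gene, was the lower call at 3.80 and 3.93 against 4.88 and 5.29. Both of its sorted values and ovary replicate 1 lay under the background level of 5.04, and ovary replicate 2 was close to it. Lhx2 lost its call when any 1 array was left out, and Sprr2d lost it without either ovary or either testis array, while 2 members were called higher without pre-granulosa replicate 2.

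General factors of the somatic gonad varied, with a median of -0.30 and 2 of 15 called lower (13.3%, against 5.16% of all genes). Wt1, which the coelomic epithelium and supporting cells require, read 12.49 and 12.67 against 12.66 and 12.58 (difference -0.04 ± 0.18, adjusted p = 0.885). Nr5a1, the nuclear receptor SF1, read 9.86 and 8.86 against 9.50 and 9.51, so the sorted replicates lay on either side of the ovaries. The signs of both differences depend on the scaling: Wt1 gave -0.30 as deposited and 0.08 after quantile normalization over the 8 arrays, and Nr5a1 gave -0.40 and 0.18. The second probe set of Nr5a1 gave 1.68 and was not called (adjusted p = 0.0167). Amhr2, the receptor for anti-Müllerian hormone, read 12.31 and 11.54 against 10.95 and 10.89 (difference 1.01 ± 0.26, adjusted p = 0.044). Gata4 read 10.60 and 10.63 against 10.18 and 10.06 (difference 0.49 ± 0.13, adjusted p = 0.0476), but its other probe set gave -1.59 and was called lower, so its direction depends on the probe set. None was called higher. The 2 called lower were Six4 (4.94 and 3.43 against 8.95 and 8.61, difference -4.60 ± 0.48) and Tcf21 (5.69 and 5.53 against 9.50 and 9.79, difference -4.03 ± 0.33), 2 transcription factor genes whose sorted values were near or under background. Without pre-granulosa replicates 1 and 2 the lower counts were 3 and 4, without either Sertoli array 3, and without any 1 of the ovary or testis arrays 0.

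Genes of the Sertoli list had a median of 0.90 over 20 measured members, above the -0.14 of all genes. Of these 20 members 3 were called higher (15%, against 0.863% of all genes). They were Defb19, a beta-defensin gene, Clu, which encodes the secreted chaperone clusterin, and Mro, which encodes maestro. Defb19 read 10.28 and 9.80 against 8.28 and 7.99 (difference 1.90 ± 0.21, adjusted p = 0.00394), Clu differed by 1.47 ± 0.15 and Mro by 1.40 ± 0.21. Sox9, the factor that drives Sertoli fate, read 9.72 and 10.81 in the XX sorted cells and 8.07 and 8.41 in the ovaries. The Sox9 difference of 2.03 ± 0.37 was not called (adjusted p = 0.0163), and the 3 probe sets of the gene ranged from 0.01 to 2.03. Inhbb, the inhibin beta B subunit, was called lower at 8.14 and 7.62 against 9.77 and 9.64 (difference -1.83 ± 0.20). As the only lower call it was 5% of the list, near the 5.16% of all genes. Without pre-granulosa replicate 1 the number called higher was 6, without replicate 2 it was 2, and it was 0 without either ovary array or either testis array. In 7 of the 20 genes replicate 2 exceeded replicate 1 by more than 1, and the reverse held in 0.

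**Figure D2:**
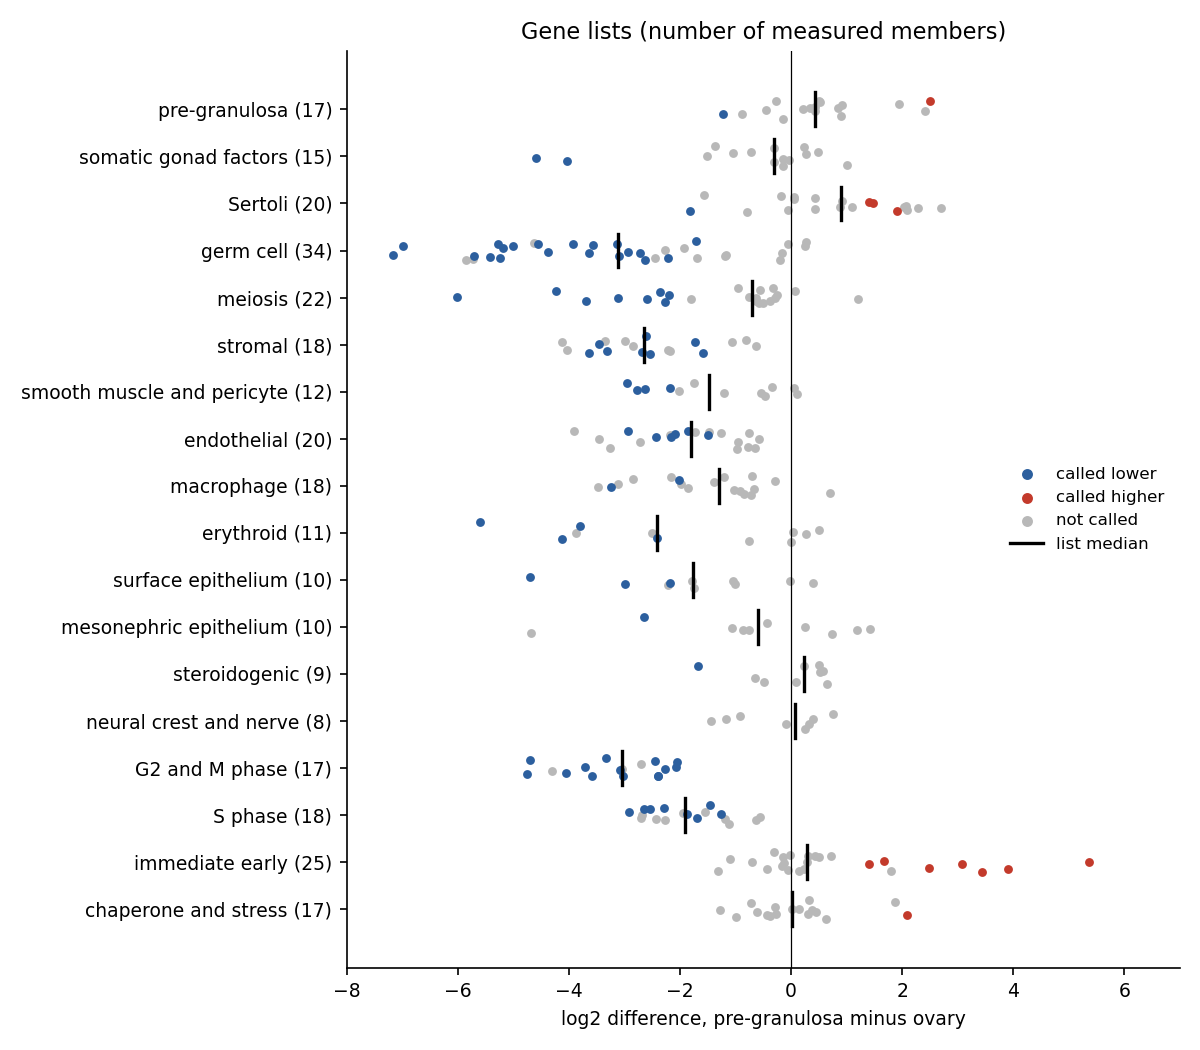
Log2 difference, pre-granulosa minus ovary, for each measured member of 18 gene lists, 1 point per gene with vertical jitter only to separate points; black bars are list medians, and the number of measured members is in brackets. Blue points were called lower and red points called higher. The lowest medians are those of the germ cell (-3.12), G2 and M phase (-3.05) and stromal (-2.65) lists, and 7 immediate early genes were called higher.

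Germ cell genes had the lowest median of the 39 lists. Of 34 measured germ cell genes 20 were called lower (58.8%, against 5.16% of all genes), 0 were called higher, and the median was -3.12. Fewer cells of a type and less RNA per cell cannot be told apart in samples of this kind. Ddx4, the germline RNA helicase also known as VASA, read 3.39 and 4.01 in the sorted arrays and 10.89 and 10.85 in the ovary arrays. The difference was -7.17 ± 0.42 (adjusted p = 0.00108), and both sorted values lay inside the background range, so the size of the difference is limited by that floor. Dazl, an RNA-binding protein that licenses germ cells for sexual differentiation, read 4.30 and 4.31 against 11.47 and 11.12 and was called lower by both of its probe sets (difference -6.99 ± 0.21, adjusted p = 0.000279), again with sorted values inside that range. In both genes the sorted arrays lay more than 6 log2 units below the ovary arrays.

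Several pluripotency factors are also expressed by fetal germ cells. Sox2, on no list but among the 15 lowest genes, read 3.89 and 3.94 against 10.02 and 9.81 (difference -6.00 ± 0.19), both sorted arrays being under the background level. Nanog read 5.58 and 5.62 against 10.90 and 10.86 (difference -5.28 ± 0.14), and Pou5f1, which encodes OCT4, read 5.73 and 4.78 against 10.45 and 10.56 (difference -5.25 ± 0.33). Lin28a, a repressor of let-7 maturation, and the zinc finger gene Sall4 fell by 5.71 and 5.42 on the log2 scale. Tfap2c, which acts in primordial germ cells, read 6.93 and 5.72 against 12.06 and 12.07, and Dppa2 read 7.43 and 4.16 against 11.77 and 11.52. Neither of these was called on its chosen probe set (adjusted p = 0.0155 and 0.0413). In the case of Dppa2 the sorted replicates differ by more than 3 units, replicate 1 being the higher. Both sorted arrays were at or under background for 14 of the 34 germ cell genes. The count of calls was 19 without pre-granulosa replicate 1, 18 without replicate 2, 13 without either testis array, 3 without ovary replicate 2 and 0 without ovary replicate 1.

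Meiotic genes gave a mixed picture. Germ cells of the fetal ovary enter meiosis from about this age under retinoic acid, with STRA8 and MEIOC among the first regulators. Of 22 measured genes 8 were called lower (36.4%, against 5.16% of all genes), 0 higher, and the median was -0.70. Meioc read 4.00 and 3.95 against 10.17 and 9.80 (difference -6.01 ± 0.48, adjusted p = 0.00192), and Hormad1, an axis protein, read 3.49 and 3.30 against 7.56 and 7.71 (difference -4.24 ± 0.16). Stra8 read 5.36 and 5.71 against 8.27 and 7.51, a 5.1-fold depletion (difference -2.35 ± 0.28, adjusted p = 0.00478). The cohesin genes Smc1b and Stag3 differed by -3.69 and -3.12, and Syce2, of the synaptonemal complex, by -2.60, all called. Against this, Rec8, the meiotic kleisin, read 11.54 and 10.68 in the sorted cells and 9.82 and 9.98 in the ovaries. The Rec8 difference of 1.21 ± 0.29 was not called (adjusted p = 0.0366), and the gene stands far above background in cells whose Ddx4 is at background. Sycp3 read 8.43 and 7.72 against 8.72 and 8.72 and was not called either (adjusted p = 0.137). The count of meiotic calls was 6 and 7 without pre-granulosa replicates 1 and 2, 3 without either testis array, and 0 without either ovary array.

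The promoters of these genes were searched for the E-box CACGTG in the 250 bases before each start, which reads the same on both strands. It was present for 8 of the 21 measured germ cell genes with a promoter entry (38.1%) and 6 of 19 meiotic genes (31.6%), against 8.73% of 14452 genes of the array with an entry. It also occurred in 5 of 20 immediate early genes (25.0%), 1 of 15 S phase genes (6.67%) and 0 of 14 G2 and M phase genes. The motif was chosen after the values were seen, and a match is a description of the sequence, not evidence of binding. Shown are Ddx4, which had the lowest difference, and Stag3, from RefSeq on GRCm38.p6, 5′ to 3′ on the gene's strand with the E-box in capitals. The Ddx4 window is chr13:112652311-112652560 on the minus strand, and that of Stag3 is chr5:138280259-138280508 on the plus strand.
Ddx4: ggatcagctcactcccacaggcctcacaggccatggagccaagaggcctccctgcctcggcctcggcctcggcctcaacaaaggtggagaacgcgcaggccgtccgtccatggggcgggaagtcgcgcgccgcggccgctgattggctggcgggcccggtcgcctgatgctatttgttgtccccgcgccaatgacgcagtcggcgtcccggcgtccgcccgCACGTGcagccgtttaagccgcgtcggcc
Stag3: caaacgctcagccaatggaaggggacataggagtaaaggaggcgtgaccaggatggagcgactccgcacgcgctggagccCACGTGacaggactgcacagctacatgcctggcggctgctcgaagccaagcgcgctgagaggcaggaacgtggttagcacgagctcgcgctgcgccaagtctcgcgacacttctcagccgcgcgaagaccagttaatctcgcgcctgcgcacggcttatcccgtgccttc

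**Figure D3:**
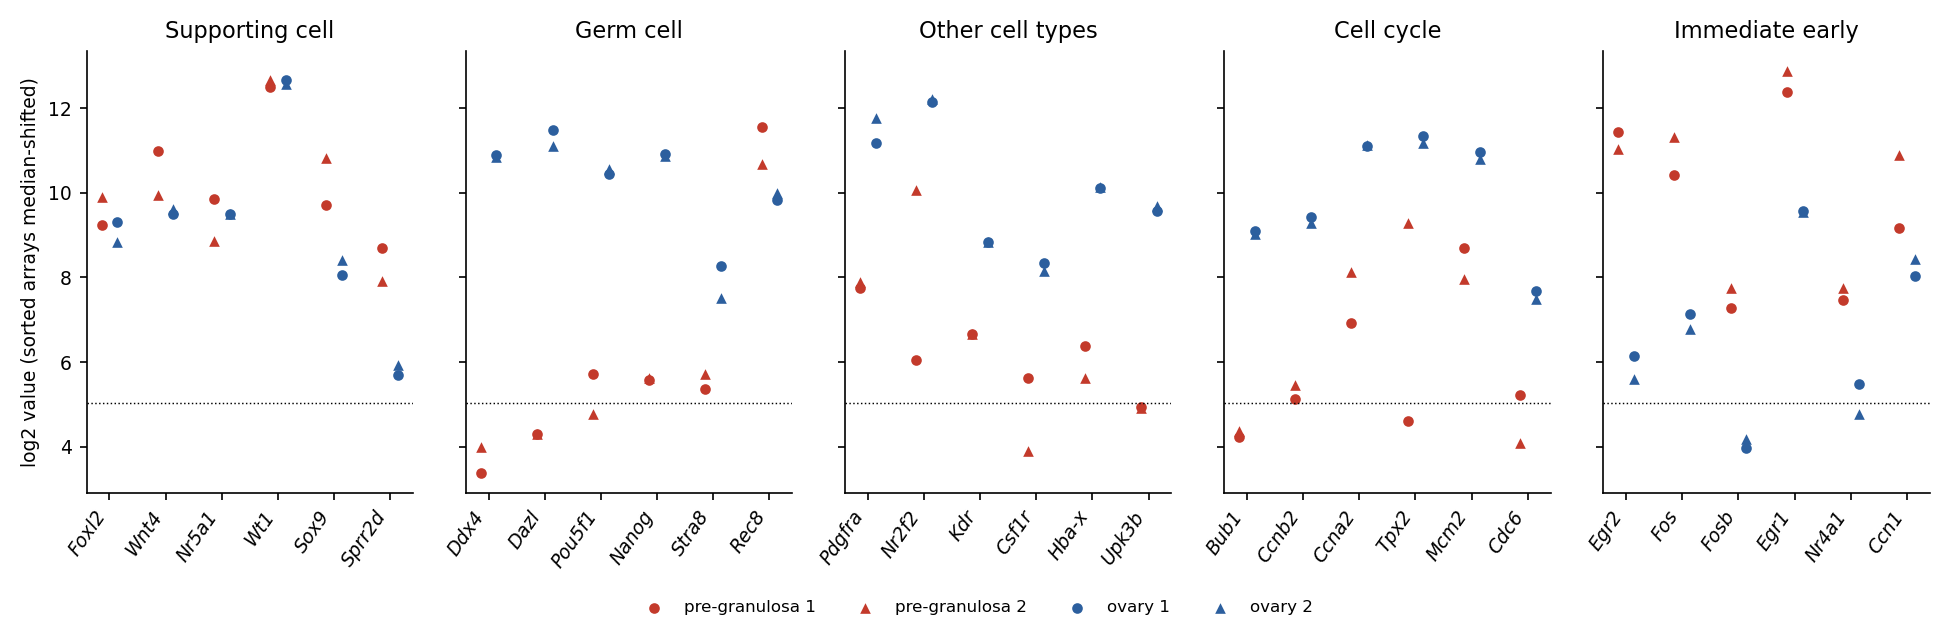
Log2 values of 30 genes on the 4 XX arrays, in panels by gene group; red symbols are the pre-granulosa arrays and blue the ovary arrays, circles replicate 1 and triangles replicate 2, and the dotted line is the background level of 5.04. Ddx4, Dazl, Upk3b and Bub1 lie under the line in both sorted arrays. Nr2f2 and Tpx2 differ between the sorted replicates by more than 4 units. Egr2, Fos, Fosb, Egr1 and Nr4a1 were named for the size of their called differences, so the gap between their groups adds no support.

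Markers of the other somatic cells of the ovary varied from list to list, from a median of -2.65 for stromal genes to 0.24 for steroidogenic genes (-0.02 as deposited). Stromal genes mark interstitial and mesenchymal progenitors. Of 18 measured, 8 were called lower (44.4%, against 5.16% of all genes) and 0 higher, with a median of -2.65. Pdgfra, the receptor that marks interstitial progenitors, read 7.76 and 7.90 against 11.17 and 11.76, a 12.4-fold depletion (difference -3.64 ± 0.29, adjusted p = 0.00192). The collagen genes Col1a2 and Col3a1 were called lower with differences of -3.45 and -2.62, Dlk1 with -2.68 and Mfap4 with -3.31. Nr2f2, the nuclear receptor COUP-TFII of the interstitium, read 6.05 and 10.07 against 12.15 and 12.22, and Col1a1 read 7.48 and 11.68 against 12.86 and 12.99. Itga8, an integrin subunit, followed the same order at 4.46 and 8.50 against 10.47 and 10.54. In these last 3 genes replicate 1 was far below the ovaries and replicate 2 lay about 4 units above replicate 1. The differences were not called on these probe sets (adjusted p = 0.0538, 0.1 and 0.0581). Each gene had 1 other probe set that was called lower. It read 8.79 and 8.97 against 10.95 and 11.12 for Nr2f2, and 5.26 and 7.11 against 10.17 and 10.72 for Col1a1. For Itga8 it read 3.57 and 3.60 against 4.49 and 4.80, all under the background level.

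The same order held over the list. The mean of the 18 stromal genes was 6.56 in pre-granulosa replicate 1, 7.52 in replicate 2, and 9.51 and 9.65 in the ovaries, and replicate 2 exceeded replicate 1 by more than 1 in 6 genes against 0 in reverse. Without replicate 1 the count of stromal calls was 7, without replicate 2 it was 12, without either testis array it was 2, and without either ovary array 0.

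Endothelial genes had 6 of 20 called lower (30.0%, against 5.16% of all genes) and 0 higher. All 20 differences were below 0, with a median of -1.80 against -0.14 for all genes. Kdr, the VEGF receptor, read 6.68 and 6.66 against 8.84 and 8.83 (difference -2.17 ± 0.13, adjusted p = 0.00109), with nearly equal replicates. The other calls included Robo4 (-2.93), the fenestral diaphragm gene Plvap (-2.44), the tight junction gene Cldn5 (-2.09) and Eng (-1.86), given as log2 differences. Cdh5 and Pecam1, which are often used to define endothelium, differed by -0.57 ± 0.30 and -1.48 ± 0.25 and were not called; in the ovary arrays Cdh5 read 5.58 and 5.82, close to background. Sox17 read 4.45 and 8.43 against 9.85 and 9.94, again with the sorted replicates far apart. The mean of the list was 5.61 in replicate 1, 6.35 in replicate 2, and 7.85 and 7.88 in the ovaries. The count of calls was 2 without pre-granulosa replicate 1, 9 without replicate 2, 2 without either testis array and 0 without either ovary array.

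**Figure D4:**
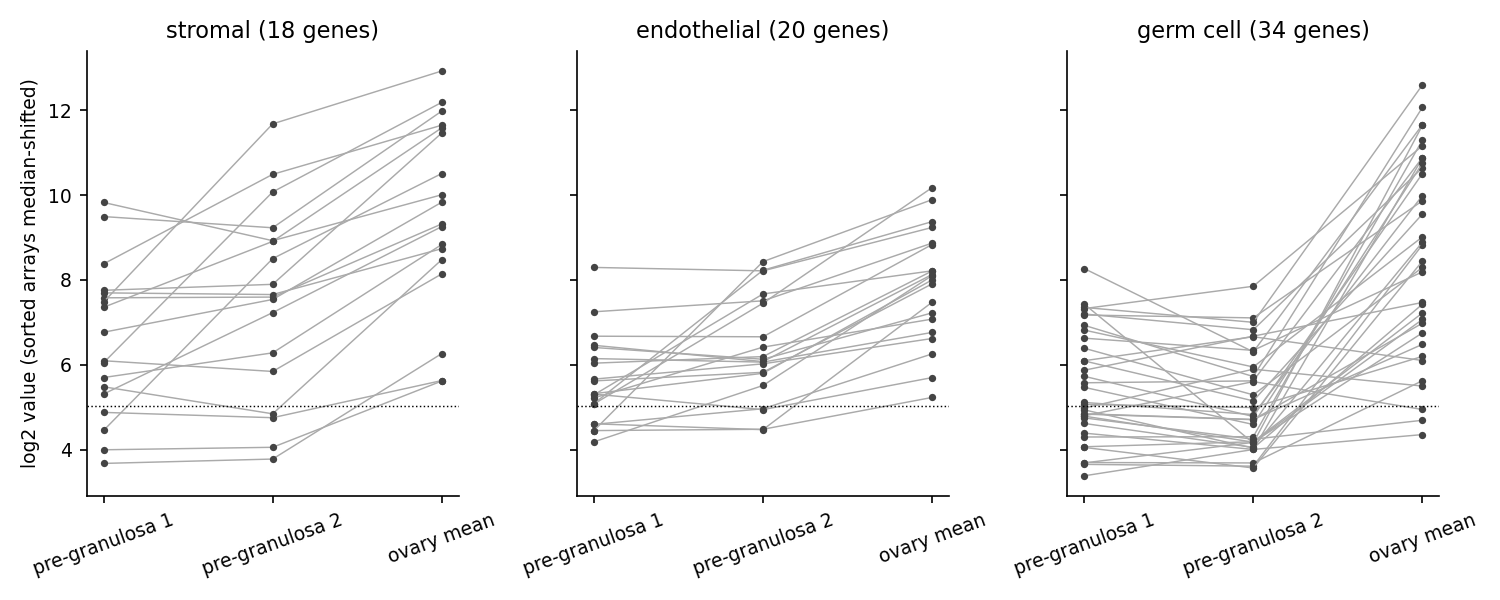
Log2 values of the measured stromal, endothelial and germ cell genes in pre-granulosa replicate 1, pre-granulosa replicate 2 and the mean of the 2 ovary arrays; a line joins the values of 1 gene and the dotted line is the background level of 5.04. Several stromal and endothelial genes climb by about 4 units from replicate 1 to replicate 2, while the germ cell genes lie low in both and the 4 that differ by more than 1 are the higher in replicate 1.

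Red cell transcripts were depleted but still measured in the sorted fraction. Of 11 measured erythroid genes 4 were called lower (36.4%, against 5.16% of all genes) and 0 higher, with a median of -2.42. Hemgn, a nuclear protein of erythroid precursors, read 4.19 and 4.04 against 9.94 and 9.51 (difference -5.61 ± 0.45), and the embryonic alpha-like globin gene Hba-x read 6.38 and 5.62 against 10.12 and 10.13 (difference -4.12 ± 0.28). The embryonic beta-like globin gene Hbb-y, among the brightest of the list, read 11.75 and 10.56 against 13.70 and 13.63. It lay well above background in the sorted arrays, and it missed a call on this probe set (difference -2.51 ± 0.41, adjusted p = 0.0116). Of its 3 probe sets 1 was called lower, at 9.30 and 9.35 against 13.72 and 13.56 (difference -4.31 ± 0.18). Outside the list, Hbb-b2, an adult-type beta globin gene, was among the 15 most depleted genes at 6.92 and 6.55 against 12.22 and 11.96, and globin genes can share probes because their sequences are close. The erythroid count was 4 without either pre-granulosa array, 3 without either testis array and 0 without either ovary array.

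Macrophage genes had 2 of 18 called lower (11.1%, against 5.16% of all genes), with a median of -1.30. The 2 were Mrc1, which encodes the mannose receptor, and Lyz2. Mrc1 read 4.19 and 4.01 against 6.73 and 7.95 (difference -3.25 ± 0.44). Csf1r, the receptor on which macrophages depend, read 5.63 and 3.90 against 8.35 and 8.15 and was not called (difference -3.48 ± 1.33, adjusted p = 0.116). Surface epithelium genes had 3 of 10 called lower (30.0%, against 5.16% of all genes). Upk3b, a uroplakin of mesothelium, was the strongest at 4.94 and 4.91 against 9.58 and 9.68 (difference -4.70 ± 0.14, adjusted p = 0.000279). Lrrn4 and Muc16, both mesothelial genes, fell by 2.99 and 2.17. Of 12 smooth muscle and pericyte genes 4 were called lower (33.3%, against 5.16% of all genes): Kcnj8, Abcc9, Mylk and Rgs5. The first 2 encode the subunits of 1 pericyte potassium channel. Kcnj8 read 4.57 and 4.27 against 7.18 and 7.56 and Abcc9 read 3.43 and 3.64 against 6.38 and 6.25, so the channel subunits were at background in both sorted arrays. Among 10 mesonephric epithelium genes Epcam was the only call (10%, against 5.16% of all genes, difference -2.65 ± 0.37). Krt18 and Cdh16 had differences of 1.18 ± 0.25 and 1.42 ± 0.23 and were not called. Steroidogenic genes had 1 of 9 called lower (11.1%, against 5.16% of all genes). It was Mc2r, the ACTH receptor, at 3.52 and 3.62 against 5.41 and 5.07. Neural crest and nerve genes had 0 of 8 called. Without ovary replicate 1 all of these counts were 0, and without ovary replicate 2 all were 0 except 1 surface epithelium gene. Without pre-granulosa replicate 1 the macrophage count was 1 and the mesonephric and steroidogenic counts were 0, and without either testis array the macrophage, mesonephric and steroidogenic counts were 0 and the pericyte count was 2.

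Cell division genes formed the second large block of depletion. Of 17 measured genes of G2 and M phase 14 were called lower (82.4%, against 5.16% of all genes) and 0 higher. Every difference was below 0, with a median of -3.05 against -0.14 for all genes. Bub1, a spindle checkpoint kinase, read 4.24 and 4.36 in the sorted arrays and 9.09 and 9.02 in the ovaries, and was called lower by both probe sets (difference -4.75 ± 0.44, adjusted p = 0.00265). Ccnb2, cyclin B2, read 5.14 and 5.46 against 9.44 and 9.28 (difference -4.06 ± 0.24, adjusted p = 0.00109), and Ccna2, cyclin A2, read 6.93 and 8.13 against 11.10 and 11.12 (difference -3.58 ± 0.36). In Bub1 the sorted values were under background, while in Ccna2 both stayed above it.

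The remaining mitotic genes differed in how well their replicates and probe sets agreed. Nusap1, which bundles spindle microtubules, read 5.69 and 7.53 against 11.38 and 11.23 (difference -4.69 ± 0.54, 1 of 2 probe sets called). Top2a, topoisomerase II alpha, differed by -3.71 ± 0.23 on its chosen probe set, but its other 2 probe sets were not called and reached 0.62, so the call holds for 1 of 3. Mki67, the gene of the Ki-67 antigen, read 7.59 and 9.30 against 11.36 and 11.64 and missed the threshold (difference -3.05 ± 0.53, adjusted p = 0.0141). Tpx2, a spindle assembly factor, read 4.61 and 9.28 against 11.33 and 11.17 (adjusted p = 0.0695). Replicate 2 exceeded replicate 1 by more than 1 in 6 of the 17 genes and the reverse held in 0. The count of calls was 16 without either pre-granulosa array, 5 without either testis array and 0 without either ovary array.

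Replication genes followed at smaller size. Of 18 measured S phase genes 8 were called lower (44.4%, against 5.16% of all genes) and 0 higher. Every difference was below 0, with a median of -1.91 against -0.14 for all genes. Cdc6, which loads the replicative helicase, read 5.23 and 4.09 against 7.68 and 7.49 (difference -2.93 ± 0.38). Mcm2, a subunit of that helicase, read 8.70 and 7.97 against 10.96 and 10.80 (difference -2.55 ± 0.26, adjusted p = 0.00322). Pola1 and Prim1, of the polymerase alpha primase complex, fell by 2.64 and 2.29, and Cdt1 fell by 1.88. Pcna, the polymerase clamp, read 8.12 and 9.57 against 11.24 and 11.30 and was not called (adjusted p = 0.0154). Here 5 genes were higher by more than 1 in replicate 1 and 2 in replicate 2. The count was 11 without pre-granulosa replicate 1, 7 without replicate 2, 4 without either Sertoli array, and 0 without any 1 of the ovary or testis arrays.

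Promoters of dividing-cell genes often carry a CCAAT box bound by NF-Y. The letters CCAAT, on either strand, were searched in the 250 bases before the start. They occurred for 12 of the 14 measured G2 and M phase genes with an entry (85.7%) and for 11 of 15 S phase genes (73.3%). The share was 39.4% of all 14452 genes, 47.6% of germ cell, 42.1% of meiotic and 40.0% of immediate early genes. A match is a description of the sequence, not evidence of binding. Shown are Ccnb2 (chr9:70421555-70421804, minus strand) and Bub1 (chr2:127831860-127832109, minus strand), with each CCAAT, or ATTGG where it lies on the other strand, in capitals. The Ccnb2 window holds 3 matches and that of Bub1 holds 2.
Ccnb2: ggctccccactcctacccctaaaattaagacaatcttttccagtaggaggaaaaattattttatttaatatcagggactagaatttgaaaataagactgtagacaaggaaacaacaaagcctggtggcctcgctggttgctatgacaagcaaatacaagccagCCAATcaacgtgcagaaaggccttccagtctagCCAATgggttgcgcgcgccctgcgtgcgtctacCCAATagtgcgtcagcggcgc
Bub1: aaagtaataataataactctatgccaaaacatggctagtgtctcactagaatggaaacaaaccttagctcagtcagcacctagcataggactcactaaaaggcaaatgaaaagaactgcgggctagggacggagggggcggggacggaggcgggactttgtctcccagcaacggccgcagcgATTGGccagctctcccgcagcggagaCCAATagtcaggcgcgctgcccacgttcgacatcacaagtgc

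The same contrast in XY gonads, Sertoli cells minus whole testis, gave cell cycle values nearer to 0, though no gene passed the test of the difference. It shares no array with the XX contrast. The median of the 17 G2 and M phase genes was -0.52 in XY against -3.05 in XX, and all 17 differences were lower in XX. In XY 1 of the 17 was called lower, where 5.76% of all genes were. Ccnb2 differed by -0.52 in XY, Bub1 by -0.97 and Nusap1 by -0.71. In the test of the difference between the contrasts, limma gave adjusted p-values from 0.0357 for Ccnb2 to 0.538 for Tpx2 over these genes, so 0 passed 0.01. Median values for the 18 S phase genes were -1.91 in XX and -0.29 in XY, all 18 again lower in XX. Their limma adjusted p-values for the difference ran from 0.0575 to 0.963. The share of all genes with a lower XX difference was not counted. In other lists it held for 16 of 18 macrophage and 11 of 12 glycolysis genes. It held for only 3 of 12 hedgehog and 2 of 17 pre-granulosa genes.

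**Figure D5:**
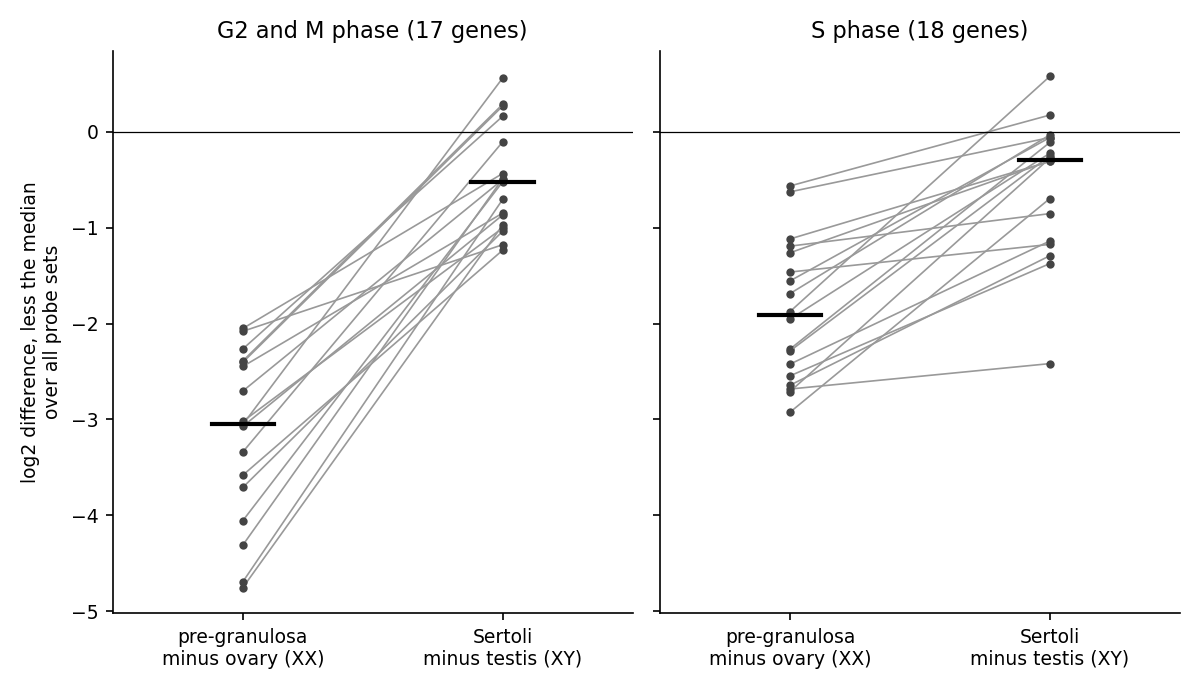
Log2 differences of the G2 and M phase genes (left, 17 genes) and S phase genes (right, 18 genes) in the XX contrast and in the XY contrast, each less its own median over all probe sets; a line joins 1 gene and black bars are medians. All lines climb from XX to XY, with medians moving from -3.05 to -0.52 and from -1.91 to -0.29.

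Across all genes no difference between the XX and XY contrasts passed the threshold. By limma 0 of 18193 genes were called for the difference between them at 0.01 (lowest adjusted p 0.0240), with 2320 genes at an unadjusted p under 0.05 and 62 genes (0.341%) at an adjusted p of 0.05. The XY contrast on its own gave 267 genes higher (1.47%) and 1048 lower (5.76%). Ddx4 and Dazl differed by -6.40 and -6.92 in XY, close to their XX values. Stra8 differed by -0.01 in XY and -2.35 ± 0.28 in XX, with an adjusted p of 0.0866 for the difference. Cdx2, a caudal-type homeobox gene, was among those 62: it read 6.30 and 6.14 in the sorted cells and 10.54 and 10.18 in the ovaries (difference -4.14 ± 0.25), against -0.26 in XY (adjusted p of the difference = 0.034). Only 1 of the 2 Cdx2 probe sets was called in XX. Inhbb differed by -1.83 ± 0.20 in XX and 0.12 in XY (adjusted p = 0.0658), and Ereg, the EGF receptor ligand epiregulin, by 0.26 ± 0.24 and -2.37 (adjusted p = 0.0567).

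Transcripts higher in the sorted cells were led by immediate early genes, which respond within minutes to growth factors, stress or tissue handling. Of 25 measured members 7 were called higher (28.0%, against 0.863% of all genes) and 0 lower, while the median was 0.28, and the other 18 members were not called. Egr2, a zinc finger transcription factor, read 11.44 and 11.04 in the sorted arrays and 6.14 and 5.60 in the ovaries, a 41.4-fold enrichment called by both probe sets (difference 5.37 ± 0.24, adjusted p = 0.00064). Fos, a subunit of AP-1, read 10.42 and 11.31 against 7.13 and 6.77 (difference 3.91 ± 0.40, adjusted p = 0.00332), and its relative Fosb read 7.28 and 7.74 against 3.97 and 4.17 (difference 3.44 ± 0.41), under background in both ovary arrays. Egr1 read 12.39 and 12.88 against 9.57 and 9.55 (difference 3.07 ± 0.20), and the orphan nuclear receptor gene Nr4a1 read 7.46 and 7.76 against 5.48 and 4.77 (difference 2.49 ± 0.27). These 5 genes were named for the size of their called differences, so the lack of overlap between their groups adds no support. Atf3 and Klf4 completed the 7, with differences of 1.68 and 1.40.

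Other members of the list did not follow. Jun, the partner of Fos in AP-1, differed by 0.51 and Junb by -0.14, neither of them called. Nr4a2 read 6.56 and 7.48 against 8.43 and 8.27 (difference -1.32 ± 0.43, adjusted p = 0.0762), and Socs3 differed by -1.10 ± 0.35. Ccn1, a matricellular protein gene, read 9.17 and 10.90 against 8.03 and 8.44 and was not called on the chosen probe set, while 2 of its 4 probe sets were called higher. Of 17 chaperone and stress genes only Hspa1b, an inducible HSP70 gene, was called higher (5.88%, against 0.863% of all genes). It read 12.57 and 12.65 against 10.66 and 10.39 (difference 2.09 ± 0.21). Of 14 p53 and arrest genes 0 were called. Sertoli cells against testis gave the same leading genes values of 5.10 for Egr2, 4.11 for Fos and 2.22 for Egr1. The gonads were not dissociated and sorted in the way the cells were, so cell type and handling cannot be told apart for these genes. The count was 6 without pre-granulosa replicate 1, 5 without replicate 2, 2 without either testis array and 0 without either ovary array.

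Immediate early promoters commonly carry cyclic AMP response elements, whose core is TGACG. On either strand these letters occurred before the start of 12 of the 20 measured immediate early genes with an entry (60.0%), against 25.9% of all 14452 genes. All 6 called members with an entry held them, but these were picked by their values in this contrast. Shares were 23.8% for germ cell, 21.1% for meiotic, 21.4% for G2 and M phase and 20.0% for S phase genes. A match is a description of the sequence, not evidence of binding. Shown are Fos (chr12:85473640-85473889, plus strand) with 2 matches and Nr4a1 (chr15:101266596-101266845, plus strand) with 4, TGACG or CGTCA in capitals.
Fos: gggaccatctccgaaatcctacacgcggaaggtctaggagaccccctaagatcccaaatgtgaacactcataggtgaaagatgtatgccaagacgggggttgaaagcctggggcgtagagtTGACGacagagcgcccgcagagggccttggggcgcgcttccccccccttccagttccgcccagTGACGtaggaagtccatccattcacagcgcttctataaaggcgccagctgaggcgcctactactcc
Nr4a1: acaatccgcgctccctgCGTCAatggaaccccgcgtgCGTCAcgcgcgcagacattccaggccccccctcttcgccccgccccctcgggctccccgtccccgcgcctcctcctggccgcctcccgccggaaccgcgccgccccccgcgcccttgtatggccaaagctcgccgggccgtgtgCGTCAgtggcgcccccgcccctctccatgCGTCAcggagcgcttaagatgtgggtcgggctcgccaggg

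The remaining genes among the 15 highest belong to no list. Orc1, of the origin recognition complex, read 8.67 and 9.20 against 5.73 and 5.41 (difference 3.36 ± 0.43), opposite to the other replication genes, but its second probe set gave 0.15. Stat3, a cytokine-activated transcription factor, differed by 2.83 ± 0.33 on 1 of 4 probe sets, the others ranging down to -0.39. Snhg11, a long non-coding host transcript of small nucleolar RNAs, read 10.40 and 9.80 against 7.06 and 7.26 (difference 2.95 ± 0.23, adjusted p = 0.00179). Mlxipl, the glucose-responsive factor ChREBP, read 8.46 and 7.82 against 5.60 and 5.35 (difference 2.66 ± 0.36), and Slc5a4a, a sodium-coupled transporter of the glucose family, read 7.33 and 6.72 against 4.04 and 4.49 (difference 2.76 ± 0.26). Pmfbp1, known from sperm head-tail coupling, read 7.35 and 7.05 against 4.12 and 5.20. Mid1, Dcdc2a and Tmc1 differed by 2.74, 2.48 and 2.47, each on a single called probe set among 2 or 3. In Dcdc2a and Tmc1 both ovary arrays were at background.

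Beyond germ cell, red cell and meiotic genes, the 15 lowest held genes of division and signalling. Cep55, which acts at the midbody in abscission and in germ cell bridges, read 3.77 and 4.27 against 10.49 and 10.58 (difference -6.51 ± 0.58), with 0.11 on its other probe set. Esco2, the cohesin acetyltransferase, read 3.35 and 4.30 against 9.62 and 8.96 and was called by both probe sets (difference -5.47 ± 0.37, adjusted p = 0.00129). Cdc42ep3, a Cdc42 effector, fell by 6.03 on 1 of 2 probe sets, and Mreg, which encodes melanoregulin, fell by 5.90. Epha3, an ephrin receptor, read 3.21 and 3.53 against 8.95 and 8.63 (difference -5.42 ± 0.22), called by 2 of its 4 probe sets with 0.18 as the highest. In XY, Cep55 and Esco2 differed by -2.34 and -1.79, and Epha3 by -5.37.

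Signalling genes were next read by pathway, in the order ligand, receptor and target. Of 25 measured Wnt genes 4 were called lower (16%, against 5.16% of all genes) and 0 higher: Dkk1, Znrf3, Sfrp1 and Sfrp2. Dkk1, which blocks the LRP co-receptor, read 4.45 and 4.25 against 7.83 and 8.17 (difference -3.65 ± 0.24), and Znrf3, a ligase that removes Frizzled receptors, read 4.66 and 6.36 against 9.09 and 9.21 (difference -3.64 ± 0.50). Sfrp1, a secreted Frizzled-related decoy, read 7.35 and 7.45 against an ovary mean of 11.01 ± 0.01 (SD, n = 2) and was called by 4 of 5 probe sets (difference -3.61 ± 0.18), and Sfrp2 differed by -3.33 ± 0.41. The ligand Wnt5a read 7.02 and 7.87 against 10.16 and 10.18 (difference -2.73 ± 0.94, adjusted p = 0.09, although 3 of its 4 probe sets were called), and the receptor Fzd7 differed by -3.45 ± 0.54 (adjusted p = 0.0102). The Wnt count was 5 and 6 without pre-granulosa replicates 1 and 2, 2 without either testis array and 0 without either ovary array.

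The BMP and TGF-beta list had 1 of 27 called higher (3.70%, against 0.863% of all genes) and 2 lower (7.41%, against 5.16%). Fstl3, a follistatin relative, read 8.30 and 8.15 against 7.17 and 7.08 (difference 1.10 ± 0.16, adjusted p = 0.00791), and it was not called when any 1 array was left out. Tgfb2 read 6.95 and 8.13 against 10.68 and 10.83 (difference -3.21 ± 0.41), and Inhbb was the other lower call. The receptor Bmpr1a read 8.64 and 11.44 against 11.32 and 11.28, so on this probe set replicate 2 matched the ovaries and replicate 1 did not. Its 6 probe sets ranged from -1.27 to 1.68, with 0 called. In the FGF and EGF list 3 of 22 were called lower (13.6%): the transcription factor gene Etv5 and the feedback inhibitor genes Spry1 and Spred1. Etv5 read 4.58 and 6.25 against 9.23 and 9.45 (difference -3.93 ± 0.51), Spry1 read 4.26 and 4.56 against 6.57 and 6.60, and Dusp6 at 6.80 and 7.80 against 9.72 and 9.35 was not called (adjusted p = 0.0132). Spred1 has 8 probe sets, of which 1 was called, and their differences range from -1.23 to 1.20.

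Notch, hedgehog, and insulin and IGF had 1 lower call each (6.25%, 8.33% and 7.14% of their genes), shares near the 5.16% of all genes. In Notch, with 16 genes, it was the target gene Hey2 at 3.96 and 3.97 against 6.62 and 6.20 (difference -2.45 ± 0.20), at background in both sorted arrays. Among 12 hedgehog genes it was the transcription factor Gli2 at 5.19 and 5.36 against 7.99 and 7.32 (difference -2.38 ± 0.27, both probe sets called). The ligand Dhh read 5.42 and 6.65 against 5.82 and 6.13, with a difference of 0.06 ± 0.38 that becomes -0.19 as deposited. Of 14 insulin and IGF genes Igfbp3 was called lower (6.99 and 6.30 against 9.68 and 10.14, difference -3.26 ± 0.27). In the retinoid list 3 of 16 were called lower (18.8%): the binding protein genes Crabp1 (difference -3.10 ± 0.28) and Crabp2 (difference -1.69 ± 0.19) and the receptor gene Rarg (difference -1.67 ± 0.24). Among 9 genes that supporting and stromal cells supply to germ cells 1 was called lower (11.1%). It was Cxcl12, the chemokine that guides germ cell migration, at 6.39 and 6.70 against 8.33 and 9.05. Kitl differed by -0.14. All counts in the BMP, FGF, Notch, hedgehog, IGF, retinoid and niche lists were 0 without either ovary array and at most 1 without either testis array. Without pre-granulosa replicate 2 the lower counts were 6 for BMP and TGF-beta, 3 for Notch, 3 for hedgehog and 4 for insulin and IGF. The FGF and EGF count was 1 without either Sertoli array, and the Notch and hedgehog counts were then 2; the niche count was 0 without either pre-granulosa array.

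Matrix and adhesion lists had 2 genes called lower each. These were 11.1% of 18 basement membrane genes and 11.8% of 17 junction genes, against 5.16% of all genes. Nid2, which encodes nidogen 2, read 4.46 and 4.87 against 9.09 and 8.92 (difference -4.34 ± 0.21, adjusted p = 0.000707), and Col4a6 differed by -2.29 ± 0.26. The related Nid1 read 9.14 and 9.88 against 11.06 and 11.21 and was not called, with probe sets ranging from -1.62 to 2.17. Among the junction genes Jup, plakoglobin, was called at 8.09 and 8.34 against 9.69 and 9.71 (difference -1.48 ± 0.15) beside Cldn5. E-cadherin, Cdh1, read 4.22 and 4.35 against 9.02 and 8.90, with sorted values at background, and missed a call (difference -4.68 ± 1.06, adjusted p = 0.0304). In 7 junction genes replicate 2 exceeded replicate 1 by more than 1, and the reverse held in 0. Without pre-granulosa replicate 2 the counts were 4 basement membrane and 6 junction genes, without either testis array both were 1, and without either ovary array both were 0.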

How the data were processed

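RNA of 4 groups, 2 samples each, was hybridized to 8 Affymetrix 430v2.0 arrays. Deposited values are log2 intensities, made per the submitters' processing notes by RMA, with no version given. Deposited medians were 5.60 for the pre-granulosa arrays and 5.98 for the ovary arrays, and the sorted and gonad arrays appear to have been normalized as separate sets, a step no label records. Such normalization fixes each set's overall level, so only differences relative to the median can be read between them. The table held 45101 probe sets, of which 64 array controls were left out.

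The median difference over the remaining 45037 probe sets (-0.253 for pre-granulosa minus ovary, -0.212 for Sertoli minus testis) was taken off the sorted arrays. Then limma 3.58.1 in R 4.3.3 was fitted with 1 mean per group over the 8 arrays (4 residual degrees of freedom, 2.20 prior), with eBayes, two-sided tests and Benjamini-Hochberg adjustment over all probe sets. Calls were made at 0.01, the false discovery rate that the series text gives for R/maanova, whose own results were not used here. The procedure was run on simulated data with the same spread in every group, so it was not tested under the unequal spreads of these arrays. Precision is limited by the 2 arrays per group.

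Probe sets with 1 symbol (34945) gave 18193 genes; 932 with several symbols were not named. A platform annotation and RefSeq on GRCm38.p6 gave the names, and RefSeq gave the promoters. There were 39 gene lists with 676 entries, 628 of them measured. The members and lists were chosen with earlier results of these data known. Named genes were the 15 highest and 15 lowest called genes with groups apart (no clone or model names), up to 5 called and 3 uncalled members per list with calls, up to 2 from other lists, and 28 fixed genes. Atf3, Klf4, Jun, Junb and Kitl were added after their values were seen. The alternatives covered scaling, spread estimate, dim probe sets, probe set choice, threshold, the replicate block and leaving out each array.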

Additional observations from a re-analysis of the deposited data

Results flagged for a closer look

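The array's own quality controls, which enter no comparison, set pre-granulosa replicate 1 apart. Its 3′ minus 5′ difference was 3.084 log2 units for beta-actin and 3.678 for Gapdh, above both ovary arrays in each case (2.33 and 2.18 for beta-actin, 1.55 and 1.40 for Gapdh). Pre-granulosa replicate 2 read 1.70 and 1.24.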

How the results depend on the processing

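The counts of calls depended on the estimate of spread and on the scaling. The values below give genes higher, then lower, against 157 and 939. As deposited they were 92 and 1659. After quantile normalization over the 4 XX arrays both were 0 (5007 genes reached an unadjusted p of 0.05, and 0.0270 was the lowest after adjustment), and with the 4 XX arrays alone both were 0. Without moderation they were 23 and 100, with array weights 53 and 534, and at an adjusted p of 0.05 they were 959 and 2758, with 62 genes for the difference from Sertoli minus testis. With the replicate number as a block they were 41 and 453. Deviations of same-numbered arrays correlated between -0.156 and 0.049. The labels do not state whether same-numbered samples share a litter or sort, so these correlations cannot settle whether the samples are paired. Over the fits that each left out 1 array the counts ran from 0 to 262 higher and from 0 to 1648 lower. Centring each array on its own median gave 235 and 747, with 23.9% of the calls higher. The other alternatives kept both counts within 1.5 times, and the difference from Sertoli minus testis had 0 calls in every fit at 0.01 in which it could be computed.

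Of the 939 lower genes 628 were called lower after quantile normalization over the 8 arrays, 489 without pre-granulosa replicate 1 and 694 without replicate 2. Among 4720 values of 225 named genes, 3678 kept their call status, 829 lost the call, 211 gained it and 2 reversed. The 2 reversals are changes of sign with a call in only 1 of the settings, and both came with the median-ranked probe set. Gata4 went from 0.49, not called, to -1.59, called. Top2a went from -3.71, called, to 0.28, not called. Of the 3678, 26 values in 18 genes changed sign without being called in either setting. Signal near background limits the folds of the dim genes.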

Other observations

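Of 17 measured respiratory chain genes 1 was called lower (5.88%, near the 5.16% of all genes): Cycs, cytochrome c, at 10.59 and 10.50 against 11.83 and 11.68 (difference -1.21 ± 0.14, 3 of 4 probe sets called), with a list median of -0.54. Of 12 glycolysis, 11 hypoxia, 12 cholesterol and 12 ribosomal protein genes 0 were called by limma at an adjusted p of 0.01. Their medians were -0.19, 0.15, -0.70 and -0.37, against -0.14 for all genes; glycolysis and hypoxia change sign with the scaling (-0.44 and -0.11 as deposited, 0.05 and 0.32 after quantile normalization over the 8 arrays). Insig1, a sterol-regulated membrane protein gene, read 8.37 and 10.56 against 11.98 and 12.18 and had the lowest difference of the cholesterol list (-2.61 ± 0.66, adjusted p = 0.041). Of 12 nuclear and gonadotropin receptor genes Nr4a1 was the only call (8.33%, against 0.863% of all genes called higher). Without pre-granulosa replicate 2 the respiratory chain count was 3, and without replicate 1 it was 0; both counts were 0 without any 1 of the ovary or testis arrays.

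Of 17 measured Hox and caudal-type genes 3 were called lower (17.6%, against 5.16% of all genes). Hoxd10 read 6.75 and 7.04 against 11.66 and 11.47 (difference -4.67 ± 0.18, adjusted p = 0.000529), Hoxd8 read 7.46 and 8.84 against 11.54 and 11.72, and Cdx2 was the third. The neighbouring Hoxd9 read 10.60 and 11.76 against 13.32 and 13.34 and was not called (adjusted p = 0.0121). Of 23 axon guidance genes Sema3c, a secreted semaphorin, was called lower (difference -1.73 ± 0.22), which at 4.35% is near the share of all genes, and the receptor genes Unc5c and Epha4 differed by -3.96 ± 0.76 and -4.06 ± 0.93 without a call. Among 9 prostanoid genes Hpgd, the enzyme that inactivates prostaglandins, was called lower (11.1%), at 4.95 and 5.41 against 8.55 and 8.98. Ptgs2, cyclooxygenase 2, read 4.46 and 8.38 against 3.38 and 3.66, so its difference of 2.90 ± 1.15 came from pre-granulosa replicate 2. Oocyte genes had 1 of 12 called lower (8.33%), Ybx2, at 5.35 and 5.36 against 7.50 and 6.71. Without either ovary array each of these counts was 0. The Hox count was 2 without any 1 of the Sertoli or testis arrays, and the axon guidance count was 4 without pre-granulosa replicate 2 or either Sertoli array, 2 without pre-granulosa replicate 1 and 0 without either testis array. Hpgd lost its call without pre-granulosa replicate 1 or either testis array, and Ybx2 when any 1 array was left out.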
